A study of Gallus gallus with 6 samples.

Results

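The sarcomeric myosin heavy chain genes of the chick heart are described here as 6 genes, MYH15, MYH7, MYH1A, MYH1B, MYH1C and MYH1E, taken from the deposited table by gene symbol. Each symbol had 1 transcript row, so 6 of the 6919 rows (6542 symbols) of the table were members. The values came from whole hearts of Dekalb white chick embryos at Hamburger-Hamilton stage HH29, sequenced with 1 library per heart. In the OFT-banded group (hearts 6, 11 and 17) a nylon suture had been tied around the outflow tract (OFT) at HH21 and was left in place until harvest, a model of altered blood flow and load in the embryonic heart. In the sham group (hearts 38, 48 and 42) the suture was passed through and removed at once. Hearts of both groups had been windowed and resealed in the egg, and their RNA had been depleted of a set of globin transcripts. Heart numbers are those of the table's columns, and the sex of the embryos was not analysed here.

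Class II sarcomeric heavy chains are the motor proteins of the thick filament. Each heavy chain holds an ATPase head that pulls on actin, a neck that binds an essential and a regulatory light chain, and a long coiled-coil rod that packs into the filament. The isoform in a muscle sets much of its speed of contraction. In the chick, MYH15 is the ventricular heavy chain (older name VMHC1) and MYH7 the atrial heavy chain (older name AMHC1). This differs from mammals, where MYH7 is the slow chain of the ventricle, MYH6 the atrial chain, and MYH15 a chain of specialised muscles such as those that move the eye. The chick MYH15 gene has also carried the symbol MYH6 in the annotation. The paper's supplement uses other names. By its printed values, the MYH15 of this text is called MYH7 there, and the MYH7 of this text is called MYH6. MYH1A, MYH1B, MYH1C and MYH1E belong to a cluster of fast skeletal muscle heavy chain genes.

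The HH29 heart used MYH15 as its main sarcomeric heavy chain and MYH7 as the second, with the fast skeletal chains far below. Levels are in reads per kilobase of transcript and 1000000 mapped reads (RPKM), a scale that corrects for transcript length. The paper attributes the lower integrity of the sequenced RNA to freeze-thawing and globin depletion. Whether this affected long and short transcripts unequally was not tested, which limits comparisons between genes. MYH15 (NM_204766) was at 2410, 2781 and 3228 RPKM in OFT-banded hearts 6, 11 and 17, against 2183, 3363 and 2158 RPKM in sham hearts 38, 48 and 42. The highest value was in a sham heart and the lowest 2 were also in sham hearts, so the OFT-banded range lay within the sham range. MYH15 ranked between 39 and 73 among the 6919 rows in every heart. It held 0.380% ± 0.0687 of the summed RPKM of the table in OFT-banded hearts, against 0.356% ± 0.1004 in sham hearts (SD, n = 3 each).

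MYH7 (NM_001001302) was at 263, 229.5 and 283 RPKM in OFT-banded hearts 6, 11 and 17, against 366, 316 and 218 RPKM in sham hearts 38, 48 and 42. Sham hearts held both the highest and the lowest value. In whole hearts a smaller atrial portion and less MYH7 RNA per atrial cell cannot be told apart, and the same holds for the ventricles and MYH15. MYH7 ranked between 312 and 472 among all rows.

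MYH1C (NM_001113709) was the most abundant of the fast chains, at 25.8, 24.2 and 16.2 RPKM in OFT-banded hearts 6, 11 and 17, against 17.8, 19.1 and 18.9 RPKM in sham hearts 38, 48 and 42. OFT-banded hearts 6 and 11 lay above every sham heart, and OFT-banded heart 17 was lower than all of the sham hearts. MYH1B (NM_204228) was at 6.83, 7.44 and 6.65 RPKM in OFT-banded hearts, against 5.48, 6.04 and 5.43 RPKM in sham hearts. MYH1B was the member whose groups did not overlap in the values as deposited, and with median-ratio scaling between hearts MYH1A did not overlap either. MYH1A (NM_001013396) was at 6.22, 6.76 and 5.37 RPKM in OFT-banded hearts, against 5.16, 5.39 and 5.51 RPKM in sham hearts, with OFT-banded heart 17 inside the sham range. MYH1E (NM_001013397) was the least abundant, at 1.40, 2.32 and 2.70 RPKM in OFT-banded hearts, against 1.74, 1.41 and 1.58 RPKM in sham hearts. OFT-banded heart 6 had the lowest MYH1E value of all 6 hearts, and OFT-banded hearts 11 and 17 the highest.

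**Figure D1:**
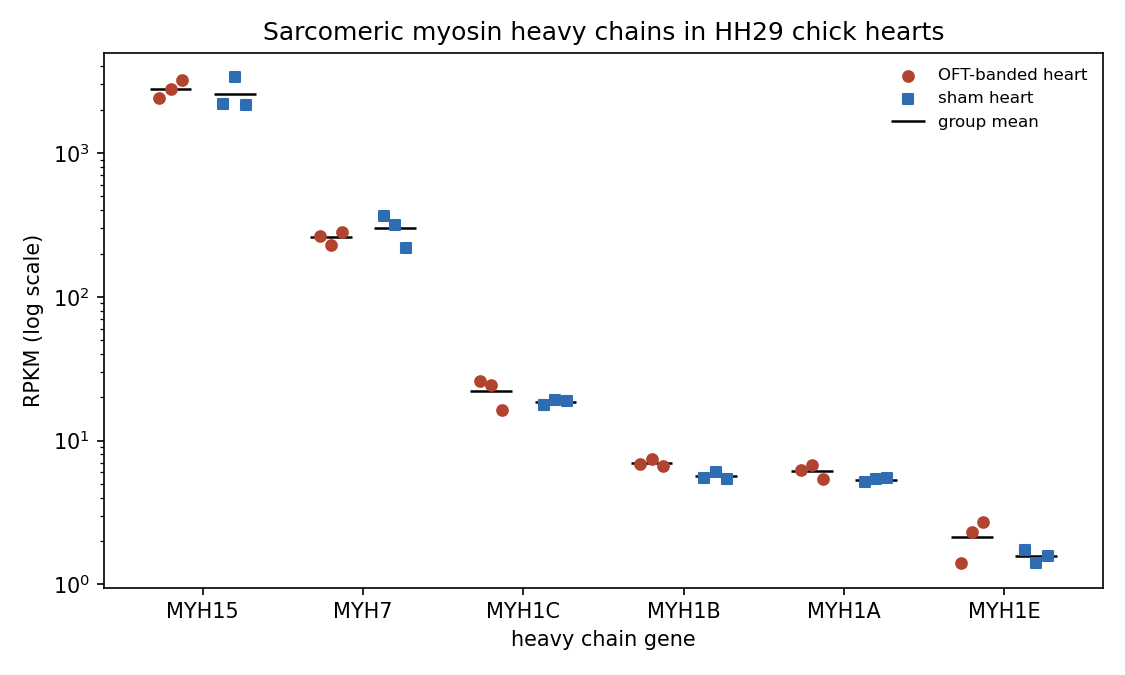
RPKM of the 6 heavy chain genes on a log axis, with 1 point per heart, OFT-banded hearts as circles, sham hearts as squares and black lines at the group means. MYH15 lies between 2158 and 3363 RPKM and MYH7 between 218 and 366 RPKM, while the 4 fast chains stay at or below 25.8 RPKM.

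The order of levels within a heart was MYH15, MYH7, MYH1C, MYH1B, MYH1A and MYH1E. MYH15 was above MYH7 in 6 of 6 hearts, by 5.97 to 12.1 times. MYH7 was above MYH1C in 6 of 6 hearts, by 9.50 to 20.5 times, and MYH1C above MYH1B in 6 of 6, by 2.43 to 3.77 times. MYH1B and MYH1A were the neighbours in this order whose ranges overlapped. MYH1B was the higher of that pair in 5 of 6 hearts, and in sham heart 42 MYH1A stood slightly above it. MYH1A exceeded MYH1E in 6 of 6 hearts, by 1.99 to 4.44 times.

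As a share of the summed RPKM of the 6 genes, MYH15 made up 88.8%, 91.1% and 91.1% in OFT-banded hearts 6, 11 and 17, against 84.7%, 90.6% and 89.6% in sham hearts 38, 48 and 42. Its mean share was 90.4% ± 1.34 in OFT-banded hearts, against 88.3% ± 3.20 in sham hearts (SD, n = 3 each). Sham heart 38 stood lowest, and the groups overlapped. MYH7 made up 9.70%, 7.52% and 7.995% in OFT-banded hearts, against 14.2%, 8.52% and 9.07% in sham hearts. The MYH7 share was thus highest in sham heart 38, and the groups again overlapped. The 4 fast chains together made up 1.48%, 1.33% and 0.873% in OFT-banded hearts, against 1.17%, 0.860% and 1.31% in sham hearts. These are shares of RNA per transcript length and say nothing of the amount of protein.

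**Figure D2:**
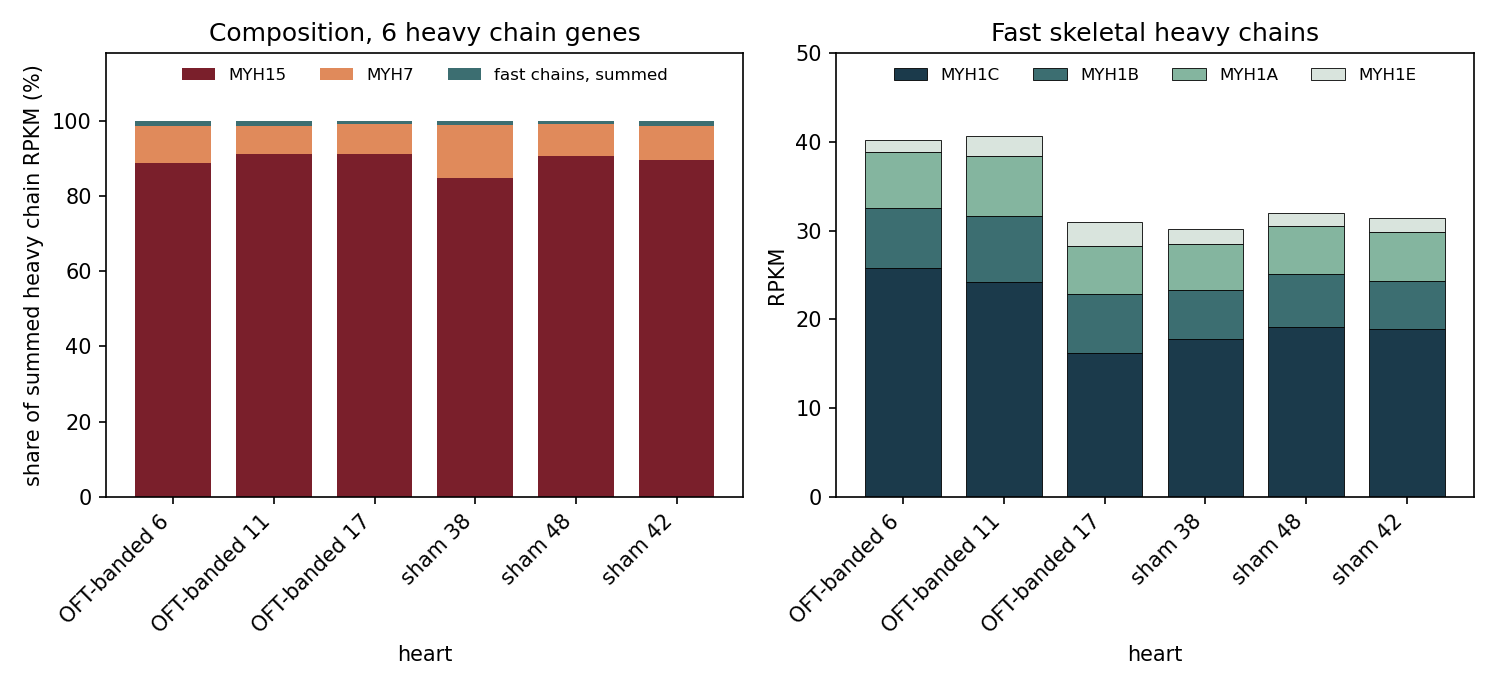
Left, share (%) of MYH15, MYH7 and the summed fast chains in the RPKM of the 6 genes, 1 stacked bar per heart. Right, RPKM of the 4 fast chains stacked per heart. MYH15 fills 84.7% to 91.1% of every bar on the left, and on the right the bars of OFT-banded hearts 6 and 11, at 40.2 and 40.7 RPKM, stand above the other 4, at 30.2 to 31.9 RPKM.

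The ratio of MYH15 to MYH7 does not depend on how a heart is scaled. It was 9.16, 12.1 and 11.4 in OFT-banded hearts 6, 11 and 17, against 5.97, 10.6 and 9.88 in sham hearts 38, 48 and 42. OFT-banded heart 6 lay within the sham range. On the log2 scale the mean ratio was 3.44 ± 0.21 in OFT-banded hearts, against 3.10 ± 0.45 in sham hearts (SD, n = 3 each), a difference of 0.34 (exact permutation test, two-sided, p = 0.4, where 3 hearts against 3 cannot give less than 0.1). The difference was 0.08 without sham heart 38, 0.46 without OFT-banded heart 6 and 0.49 without sham heart 48. With 3 hearts per group this test could not pass a threshold of 0.05, so it says nothing on whether the balance of the ventricular and the atrial chain differed.

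Within the fast cluster MYH1C was the leading chain in each heart, with 64.1%, 59.4% and 52.4% of the summed fast chain RPKM in OFT-banded hearts 6, 11 and 17, against 58.98%, 59.8% and 60.2% in sham hearts 38, 48 and 42. The sham hearts lay close together, and OFT-banded hearts 6 and 17 formed the upper and lower ends. MYH1B held 16.99% to 21.5% of the fast chain RPKM in OFT-banded hearts, against 17.3% to 18.9% in sham hearts. MYH1A held 15.5% to 17.4% in OFT-banded hearts, against 16.9% to 17.5% in sham hearts. MYH1E was the most uneven, at 3.48%, 5.70% and 8.74% in OFT-banded hearts, against 5.77%, 4.42% and 5.03% in sham hearts. The summed fast chain level was 37.3 ± 5.51 RPKM in OFT-banded hearts, against 31.2 ± 0.901 RPKM in sham hearts (SD, n = 3 each), and the groups overlapped, since OFT-banded heart 17, at 30.9 RPKM, lay inside the sham range.

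In the RefSeq annotation of a later assembly (GRCg7b) the fast genes lie next to each other on 1 chromosome in the order MYH1D, MYH1F, MYH1A, MYH1B, MYH1E, MYH1C and MYH1G, with noncoding RNA genes as the annotated genes between them. MYH15, MYH7 and the slow chain gene MYH7B lie on other chromosomes. MYH1D, MYH1F and MYH1G were not analysed here. Clustered heavy chain genes share long stretches of near-identical sequence, and only uniquely mapped reads were counted, so the split between the fast chains is uncertain. Their summed level, and the shares and ratios that rest on it, may also be affected by lost reads, which was not tested. The MYH1E accession of the table is not among those that this annotation lists for the gene, which was matched by symbol.

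The comparison of OFT-banded with sham hearts asks whether banding shifted heavy chain usage. The test was limma on log2(RPKM + 1), run on the 4726 rows whose mean reached 1 RPKM, with p-values adjusted over all of these by the Benjamini-Hochberg method, and all 6 members passed this filter. None of the 6 passed at an adjusted p of 0.05, and none had an unadjusted p under 0.05. Of the 4726 tested rows, 0 passed the adjusted threshold in limma (0.00%). An unadjusted p under 0.05 was found for 405 (8.57%). OFT-banded hearts were the higher group in 155 of these (3.28%) and the lower group in 250 (5.29%). With median-ratio scaling between hearts this split was 231 higher and 176 lower, and with each heart rescaled without its globin rows 91 higher and 328 lower.

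MYH15 averaged 2807 ± 409 RPKM in OFT-banded hearts, against 2568 ± 688 RPKM in sham hearts (SD, n = 3 each), so that its log2 fold change was 0.15 with a standard error of 0.20 (limma, adjusted p = 0.756). The 95% interval of this change ran from -0.32 to 0.62. Leaving out sham heart 48 moved the change to 0.36, and leaving out OFT-banded heart 17, sham heart 38 or sham heart 42 moved it to 0.04, 0.05 and 0.04. MYH7 averaged 259 ± 27.1 RPKM in OFT-banded hearts, against 300.1 ± 74.9 RPKM in sham hearts (SD, n = 3 each), so that its log2 fold change was -0.19 with a standard error of 0.19 (limma, adjusted p = 0.692) and an interval of -0.63 to 0.26. Without sham heart 42 the change was -0.40 (limma, unadjusted p = 0.0168, adjusted p = 0.985), and without sham heart 38 it was -0.03. Without sham heart 42, 195 of 4707 rows had an unadjusted p under 0.05. These intervals leave room for changes in either direction, so similar use of both cardiac chains in the 2 groups is not shown.

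All 4 fast chains had fold changes above 0. MYH1B averaged 6.97 ± 0.414 RPKM in OFT-banded hearts, against 5.65 ± 0.339 RPKM in sham hearts (SD, n = 3 each), so that its log2 fold change was 0.26 with a standard error of 0.13 (limma, adjusted p = 0.543, unadjusted p = 0.0860). Non-overlap with the OFT-banded hearts higher, as seen in MYH1B, occurred in 5.23% of the tested rows. The unadjusted p of MYH1B was 0.0332 with median-ratio scaling and 0.0275 without the intensity trend in limma, while its adjusted p stayed between 0.460 and 0.985 over all alternatives. In these 2 settings 407 and 380 of 4726 rows had an unadjusted p under 0.05. The log2 fold changes of MYH1C, MYH1A and MYH1E were 0.21, 0.16 and 0.26 (standard errors 0.18, 0.14 and 0.22, adjusted p = 0.653, 0.661 and 0.649 from limma). For MYH1C the value was 0.41 without OFT-banded heart 17 and 0.09 without OFT-banded heart 6. Leaving out heart 17, which lay below all sham hearts, by itself removed the overlap between the groups for MYH1C. The unadjusted p of MYH1C without OFT-banded heart 17 was 0.0144 (limma, adjusted p = 0.592). In that setting 335 of 4729 rows had an unadjusted p under 0.05. For MYH1E the log2 fold change was 0.45 without OFT-banded heart 6 and 0.13 without OFT-banded heart 17. Over the 6 members 5 fold changes were above 0, with a median of 0.18, against 36.8% above 0 and a median of -0.07 over all tested rows. This background depends on the scaling. The rows above 0 were 1741 of 4726 as deposited, 2306 with median-ratio scaling and 1231 with each heart rescaled without its globin rows. The fast chains share a chromosomal cluster and stretches of near-identical sequence, so they do not count as independent members.

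**Figure D3:**
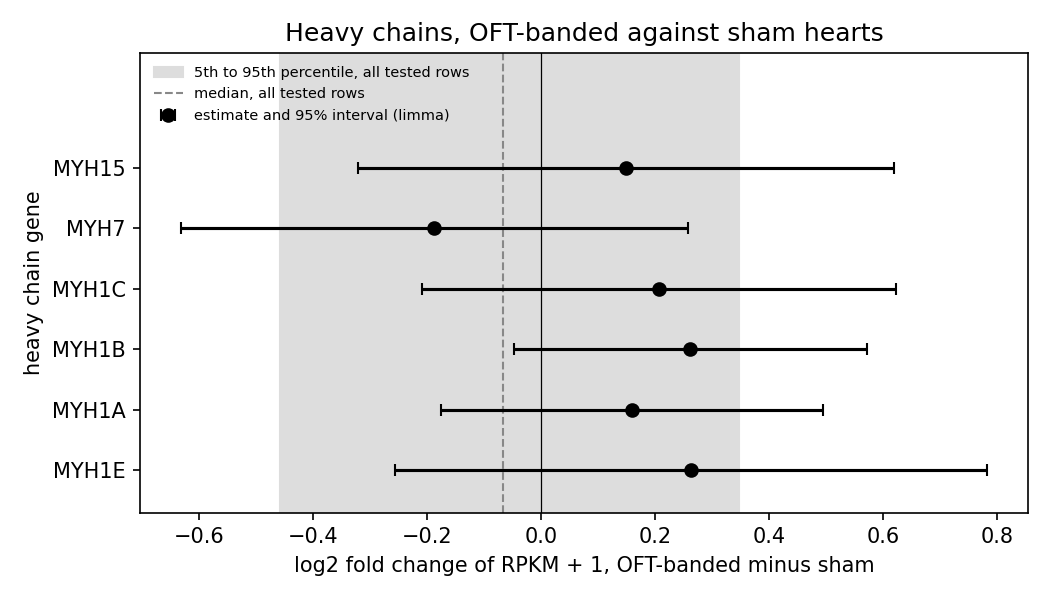
Log2 fold change of RPKM + 1, OFT-banded minus sham, for the 6 heavy chain genes, as points with 95% intervals from limma (3 hearts per group). The grey band spans the 5th to 95th percentile of all 4726 tested rows (-0.46 to 0.35), the dashed line marks their median (-0.07), every member's estimate lies inside the band and every interval crosses 0.

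The heavy chains differed in how much they varied over the hearts. The coefficient of variation over the 6 hearts was 19.5% for MYH15, 19.8% for MYH7, 18.6% for MYH1C, 12.7% for MYH1B, 10.8% for MYH1A and 28.7% for MYH1E, against a median of 13.6% over the tested rows. MYH15 and MYH7 did not follow each other from heart to heart. Relative to its own mean over the 6 hearts on the log2 scale, MYH15 stood at 0.29 in OFT-banded heart 17, and at 0.35 in sham heart 48 and -0.28 in sham heart 38. MYH7 stood at 0.04, 0.20 and 0.41 in the same hearts, and sham heart 42 was low for both genes, at -0.29 for MYH15 and -0.33 for MYH7. MYH1A moved with MYH1C and MYH1B across the hearts (Pearson's r of 0.88 and 0.81 on log2(RPKM + 1) over 6 hearts, given as a description), whereas MYH1E and MYH1C had an r of -0.32.

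**Figure D4:**
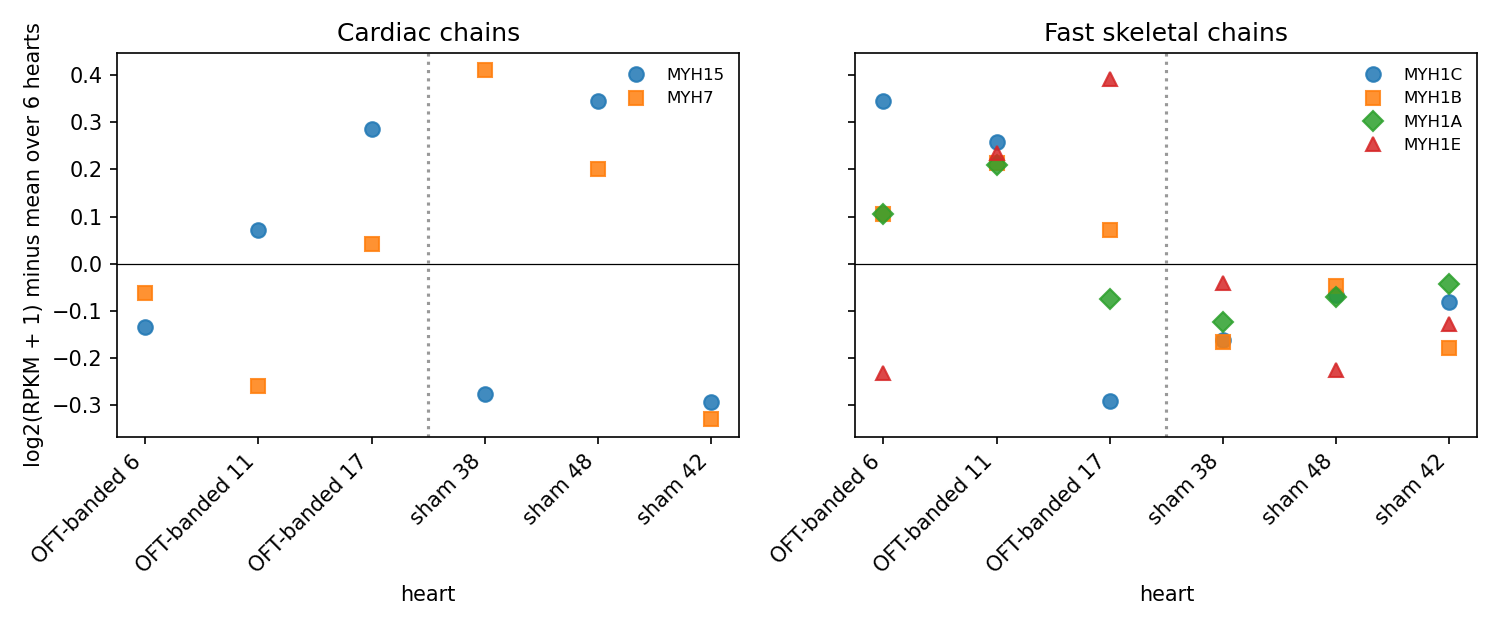
Deviation of log2(RPKM + 1) from each gene's mean over the 6 hearts, with 1 point per gene and heart, cardiac chains on the left and fast chains on the right, and a dotted line between OFT-banded and sham hearts. In the left panel MYH15 and MYH7 part in sham heart 38 (-0.28 and 0.41) and are both low in sham heart 42, and in the right panel the sham points lie between -0.23 and -0.04 while the OFT-banded points spread from -0.29 to 0.39.

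Long and short genes were unevenly represented between the hearts. The tested rows in the upper quartile of gene span, relative to those in the lower quartile, deviated on the log2 scale by -0.30, 0.04 and 0.07 in OFT-banded hearts 6, 11 and 17, against -0.12, 0.13 and 0.19 in sham hearts 38, 48 and 42. OFT-banded heart 6 and sham heart 38 were low in this measure and also below the mean for MYH15, sham heart 48 was high in both, and sham heart 42 was high in this measure and lowest for MYH15. The part of this unevenness in the heavy chain values was not tested.

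MYH7B, which encodes a further slow-type sarcomeric heavy chain, was not a member but was well represented. It was at 137, 122 and 149 RPKM in OFT-banded hearts 6, 11 and 17, against 146, 115 and 117 RPKM in sham hearts 38, 48 and 42 (log2 fold change 0.11, standard error 0.12, adjusted p = 0.704 from limma). The ratio of MYH7 to MYH7B was 1.92, 1.88 and 1.90 in OFT-banded hearts, against 2.51, 2.74 and 1.86 in sham hearts, where heart 42 fell just below the OFT-banded range. With MYH7B in the denominator, MYH15 held 86.5% ± 1.73 of the heavy chain RPKM in OFT-banded hearts, against 84.5% ± 3.97 in sham hearts, and MYH7B held 4.23% ± 0.511 in OFT-banded hearts, against 4.33% ± 1.195 in sham hearts (SD, n = 3 each). The class II chains outside the sarcomere were also present. MYH10, a non-muscle chain, was at 136 ± 22.5 RPKM in OFT-banded hearts, against 121 ± 14.0 RPKM in sham hearts, and MYH11, the smooth muscle chain, at 6.29 ± 0.518 RPKM in OFT-banded hearts, against 7.45 ± 1.08 RPKM in sham hearts (SD, n = 3 each). Of the 3 such genes tested, none passed the adjusted threshold.

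Among the light chains, which bind the neck of these heavy chains, MYL2 and MYL3 were above MYH15 in every heart, while MYL1 and MYL10 were below it. MYL2, the ventricular regulatory light chain, was at 6.95 ± 1.90 times the level of MYH15 in OFT-banded hearts, against 6.86 ± 1.92 times in sham hearts, and MYL3, an essential light chain, at 5.14 ± 1.51 times in OFT-banded hearts, against 4.79 ± 1.15 times in sham hearts (SD, n = 3 each, ratios of RPKM within a heart). Of 6 tested light chain and light chain kinase genes, none passed the adjusted threshold, and 3 had an unadjusted p under 0.05 and no overlap, all higher in OFT-banded hearts. These were MYL1, a fast skeletal light chain (log2 fold change 0.60, standard error 0.14), MYL10, a regulatory light chain (1.07, standard error 0.31), and the myosin light chain kinase MYLK (0.88, standard error 0.37). MYLK was at 9.95, 13.9 and 31.5 RPKM in OFT-banded hearts 6, 11 and 17, against 8.72, 7.98 and 8.80 RPKM in sham hearts 38, 48 and 42, and without OFT-banded heart 17 its log2 fold change was 0.43. For all 3 limma gave an adjusted p of 0.543. In the paper's own test, DESeq, MYL1 and MYL10 were higher in OFT-banded hearts at an adjusted p under 0.05. The median log2 fold change of the light chain list was 0.42, against -0.07 over all tested rows. An unadjusted p under 0.05 with OFT-banded hearts higher was found for 3.28% of all tested rows. Non-overlap with OFT-banded hearts higher was found for 5.23%.

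Among 7 tested genes of thick filament partners and assembly, none had an unadjusted p under 0.05. TRIM55, a ubiquitin ligase of the sarcomere, was at 596 ± 35.5 RPKM in OFT-banded hearts, against 504 ± 83.5 RPKM in sham hearts, and HSP90AA1, whose product helps fold myosin heads, at 453 ± 96.8 RPKM in OFT-banded hearts, against 363 ± 25.96 RPKM in sham hearts (SD, n = 3 each, adjusted p of 0.543 and 0.546 from limma). MYBPC3, the cardiac myosin binding protein that sits on the heavy chain rod, ran lower than MYH15 in every heart. The ratio of MYH15 to MYBPC3 was 3.15, 2.5 and 2.48 in OFT-banded hearts 6, 11 and 17, against 2.35, 2.60 and 1.87 in sham hearts 38, 48 and 42, with overlap between the groups.

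Fast skeletal genes other than the heavy chains were unevenly represented in these hearts. TNNC2, fast troponin C, was at 935 ± 70.9 RPKM in OFT-banded hearts, against 495 ± 136 RPKM in sham hearts. This was 25.5 ± 4.36 times the summed fast heavy chains in OFT-banded hearts, against 15.8 ± 3.93 times in sham hearts (SD, n = 3 each), without overlap. TNNC2 alone did not overlap either, at 868 to 1009 RPKM in OFT-banded hearts, against 361 to 632 RPKM in sham hearts. The non-overlap of the ratio is therefore no result about the heavy chains. Non-overlap with OFT-banded hearts higher was found for 5.23% of all tested rows. MYL1 was at 29.4 ± 9.46 times the fast heavy chains in OFT-banded hearts, against 22.4 ± 2.89 times in sham hearts (SD, n = 3 each), with overlap between the groups. In contrast, TNNI2 and TNNT3, the fast troponins I and T, did not exceed 3.67 and 4.52 RPKM in OFT-banded hearts, against 3.99 and 2.33 RPKM in sham hearts. Of the 6 tested genes of this list none passed the adjusted threshold, and 3, namely TNNC2, PVALB and MYL1, had an unadjusted p under 0.05, all higher in OFT-banded hearts (log2 fold changes of 0.95, 0.90 and 0.60, standard errors 0.19, 0.18 and 0.14). In the paper's DESeq test TNNC2, PVALB and MYL1 were higher in OFT-banded hearts at an adjusted p under 0.05. Its quantitative PCR of the sequenced hearts passed 0.05 for TNNC2 and PVALB, but not for MYL1. None of the fast heavy chains reached an unadjusted p under 0.05 in limma with the settings used for this list. Whether their fold changes differed from those of TNNC2, PVALB and MYL1 was not tested. MYL1 was also counted in the light chain list, so the counts of these lists are not independent. Of all tested rows, 3.28% had an unadjusted p under 0.05 with OFT-banded hearts higher.

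Defining markers of skeletal muscle were at or near 0. Of 10 genes for skeletal precursors and myofibres, all 10 were in the table, MYF5 and CHRND were listed at 0 in every heart, and the highest value of any was 1.25 RPKM (MUSK). Their summed level was 2.62 to 3.40 RPKM in OFT-banded hearts, against 2.46 to 3.04 RPKM in sham hearts. MYOD1, the skeletal lineage factor, was at 0, 0.66 and 0.18 RPKM in OFT-banded hearts 6, 11 and 17, against 0.07, 0.10 and 0.17 RPKM in sham hearts 38, 48 and 42. The summed fast heavy chains stood at 30.2 RPKM or more in the same hearts, in which these markers summed to 3.40 RPKM or less. These markers are other kinds of genes than the heavy chains, so their levels cannot be compared directly. Whether skeletal muscle contributed to the fast chain values was not tested.

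Markers of heart muscle and of both chambers were present. Among 7 tested cardiomyocyte markers, 4 had fold changes above 0 and 3 below 0, and none passed the adjusted threshold. PLN had an unadjusted p under 0.05 in limma, higher in OFT-banded hearts, as did 3.28% of all tested rows. The 10 rows of this list summed to 35059 to 35844 RPKM in OFT-banded hearts, against 23142 to 31659 RPKM in sham hearts. These sums did not overlap, while each tested marker overlapped by itself. Non-overlap in this direction was found for 5.23% of single tested rows. Of the cardiomyocyte markers TNNT2, cardiac troponin T, was at 7110 ± 637 RPKM in OFT-banded hearts, against 5232 ± 1745 RPKM in sham hearts, and PLN, phospholamban, at 657 ± 72.6 RPKM in OFT-banded hearts, against 514 ± 90.9 RPKM in sham hearts (SD, n = 3 each, adjusted p of 0.543 from limma for both). ATP2A2, the cardiac calcium pump, has 3 transcript rows in the table, none of which exceeded 0.63 RPKM. Whether reads that fit more than 1 of these rows were lost was not tested, so these values are not read as the level of the gene. RYR2 and TNNI1 of the cardiomyocyte list had no row in the table. The same held for HEY2 of the ventricular list and for MYL7, NPPA, NR2F1 and KCNA5 of the atrial list. No member had more than 1 row. IRX4, a ventricular transcription factor known in the chick for promoting the ventricular and restraining the atrial heavy chain, was at 372, 343 and 351 RPKM in OFT-banded hearts 6, 11 and 17, against 430.3, 461 and 475 RPKM in sham hearts 38, 48 and 42 (log2 fold change -0.36, standard error 0.08, unadjusted p = 0.00214, adjusted p = 0.543 from limma). The groups did not overlap for IRX4, as in 11.0% of tested rows with OFT-banded hearts lower, while they overlapped for both MYH15 and MYH7. NPPB, a natriuretic peptide gene of stretched heart muscle, was at 2038, 3662 and 7027 RPKM in OFT-banded hearts, against 2053, 1916 and 1124 RPKM in sham hearts, with OFT-banded heart 6 inside the sham range (log2 fold change 1.19, standard error 0.44, adjusted p = 0.543 from limma). Without OFT-banded heart 17 the log2 fold change of NPPB was 0.73. Of the 6 tested ventricular genes, 4 had fold changes above 0 and 2 below 0, with a list median of 0.14. Over all tested rows the median was -0.07. None of the list passed the adjusted threshold, and NPPB (higher) and IRX4 (lower) had an unadjusted p under 0.05 in limma. These directions held for 3.28% and 5.29% of all tested rows. MYL2 and MYL3 of this list were also in the light chain list.

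Of 6 tested atrial genes none passed the adjusted threshold, 1 (GJA5) had an unadjusted p under 0.05, 5 had fold changes below 0, as did MYH7, and the list median was -0.13. GJA5, an atrial gap junction gene, was at 194 ± 21.8 RPKM in OFT-banded hearts, against 233 ± 22.3 RPKM in sham hearts (SD, n = 3 each, log2 fold change -0.27, standard error 0.11, adjusted p = 0.543 from limma). Sham heart 38, highest for MYH7, was not the highest for GJA5. With the values scaled as deposited, fold changes below 0 made up 63.2% of the tested rows, and 5.29% had an unadjusted p under 0.05 with OFT-banded hearts lower. Of 8 tested regulators of heavy chain genes none had an unadjusted p under 0.05. GATA6 was at 63.7 ± 20.1 RPKM in OFT-banded hearts, against 82.2 ± 7.70 RPKM in sham hearts, and GATA4 at 115 ± 12.4 RPKM in OFT-banded hearts, against 132 ± 13.7 RPKM in sham hearts (SD, n = 3 each, adjusted p of 0.543 and 0.564 from limma).

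Erythroid, endothelial, smooth muscle and fibroblast markers were also present. The 9 red cell rows summed to between 6113 and 12181 RPKM in OFT-banded hearts and between 16227 and 41693 RPKM in sham hearts, without overlap. Most of this sum was the globin HBE, at 5303 to 10572 RPKM in OFT-banded hearts, against 14107 to 36922 RPKM in sham hearts. The paper lists depletion oligonucleotides for HBAA, HBAD, HBB, HBG1, HBG2 and HBZ, and none under the name HBE. For the targeted globins, red cell content and the extent of depletion cannot be told apart. Whether depletion also acted on HBE was not tested. Non-overlap with OFT-banded hearts lower was found for 11.0% of all tested rows. All 5 tested red cell genes had fold changes below 0, 4 of them (HBE, HBG1, SLC4A1 and TAL1) with an unadjusted p under 0.05 in limma. SLC4A1, which is not a globin, was at 24.5 ± 14.9 RPKM in OFT-banded hearts, against 109 ± 88.5 RPKM in sham hearts. TAL1, also not a globin, was at 20.1 ± 4.91 RPKM, against 39.5 ± 20.5 RPKM (SD, n = 3 each). The groups overlapped for both genes. Of all tested rows, 5.29% had an unadjusted p under 0.05 with OFT-banded hearts lower. Endothelial markers summed to 96.8 to 129.98 RPKM in OFT-banded hearts, against 120.4 to 161 RPKM in sham hearts, smooth muscle markers to 228 to 371 RPKM in OFT-banded hearts, against 186 to 244 RPKM in sham hearts, and epicardial and fibroblast markers to 726 to 1049 RPKM in OFT-banded hearts, against 726 to 1087 RPKM in sham hearts. Of the 4 tested smooth muscle genes 2, MYLK and TAGLN, had an unadjusted p under 0.05, both higher in OFT-banded hearts. This held for 3.28% of all tested rows, and MYLK was also counted in the light chain list. The part of the cellular makeup in the heavy chain values was not tested.

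The genes most like each heavy chain over the 6 hearts were picked by Pearson's r of log2(RPKM + 1), as a description over 6 points that share library and scaling. For MYH15 these were EFNA5, RABEP1 and TBCK (r of 0.951, 0.950 and 0.945). For MYH7 they were GFOD2, DYX1C1 and CIDEC (0.979, 0.979 and 0.968). For MYH1C they were SRRD, DPH6 and VIMP (0.990, 0.985 and 0.965), and for MYH1B PPIH, TINAG and RAD51D (0.993, 0.978 and 0.963). For MYH1A they were HTR2B, H3F3B and DNAJC24 (0.978, 0.966 and 0.959), and for MYH1E IRF1, BTBD1 and HSPA4L (0.985, 0.980 and 0.975). No heavy chain was among the 3 closest genes of another. With 6 hearts and 4726 rows, between 16 and 39 rows exceeded an r of 0.9 with each member.

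Depth differed between the hearts. Low values of microRNA rows fall on whole steps, which corresponded to between 30.2 and 41.2 times 1000000 reads in OFT-banded hearts and between 21.2 and 37.6 times 1000000 reads in sham hearts, lowest in sham heart 42. These factors are the reads behind 1 RPKM for a transcript of 1 kilobase. The transcript lengths of the heavy chains were not used here, so their reads were not recovered, and the values of MYH1E, near 2 RPKM, are the least precise.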

How the data were processed

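The authors trimmed adapters and low-quality bases, aligned strand-specific paired-end reads with TopHat to galGal4, kept uniquely mapped reads and counted them with HTSeq. The deposited values are RPKM per RefSeq transcript and heart, made by the authors from those counts and called FPKM in the paper. Unique mapping loses reads shared by near-identical genes. Columns were assigned to groups by name, since their heart numbers are not in the labels.

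Rows whose mean reached 1 RPKM were tested on log2(RPKM + 1) with limma 3.58.1 (R 4.3.3, moderation with an intensity trend, Benjamini-Hochberg threshold 0.05), after the test had been checked on simulated data. Shares, ratios and correlations came from Python 3.11.15 (pandas 2.3.3, numpy 2.4.6, scipy 1.17.1). P-values rest on the spread between 3 hearts per group, which limma moderates towards a trend fitted over all tested rows. The named genes were the members, the 3 rows most like each, and the genes of each list with the smallest p. MYH7B, MYBPC3, MYL2, MYL3, ATP2A2, TNNI2, TNNT3, TAGLN, HBE, MUSK, MYF5, CHRND and MYOD1 were instead picked once their values were known. The values of 1 gene of the lists are not reported here. The members and lists were chosen with earlier results of these data known. Gene names, order and spans came from RefSeq (GRCg7b), without coordinates, and spans were found for 99.2% of tested rows.

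Alternatives changed the pseudocount to 0.1, left out the filter or raised it to 5 RPKM, rescaled each heart to a sum of 1000000 (TPM) with and without globin rows, applied median-ratio scaling, dropped the trend, made the moderation robust, omitted each heart, or added MYH7B to the denominator of the shares.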

Additional observations from a re-analysis of the deposited data

How the results depend on the processing

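No member passed the adjusted threshold under any of the alternatives run, and none of their fold changes changed sign. The log2 fold change ranged from 0.04 to 0.36 for MYH15, -0.40 to -0.03 for MYH7, 0.09 to 0.41 for MYH1C, 0.21 to 0.32 for MYH1B, 0.09 to 0.24 for MYH1A and 0.13 to 0.45 for MYH1E, which a minimum mean of 5 RPKM left out. No row of the table passed either, while the number with an unadjusted p under 0.05, 405 as reported, was 195 without sham heart 42 and 649 without sham heart 38. The MYH15 share over all 6 hearts was 89.3%, and 85.5% with MYH7B in the denominator. With each heart left out in turn, the log2 difference in the ratio of MYH15 to MYH7 ranged from 0.08 to 0.49. Shares weighted by coding length were not run, since protein lengths were not at hand. No paired analysis was possible because the column names carry heart numbers in place of the labels' replicate numbers, and the hearts came from separate embryos. With the settings as reported, the 95% interval of each member's fold change included 0. In some alternatives the unadjusted p of MYH7, MYH1C or MYH1B from limma was under 0.05.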
